A study of Mus musculus with 30 samples.

Results

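The 9 genes described here encode the fibrinogen chains and the main plasma proteins that make and restrain thrombin: Fga, Fgb, Fgg, F2, F7, F9, F10, Serpinc1 and Proc. They were chosen by symbol, and every probe set annotated with that symbol alone was used, which gave 11 of 45037 probe sets and 9 of 18193 genes. F10 had 3 probe sets and each other gene had 1. Expression was measured with Affymetrix GeneChip Mouse Genome 2.0 arrays on total RNA of liver, kidney and brain from 10 male mice at day 22, the day of weaning. All mice carried Avy, an agouti allele known as viable yellow, opposite the nonagouti allele a, so no group without Avy was measured. They came from a sibling-mated colony on a C3H/HeJ-derived background and were graded by coat as yellow, slightly mottled, mottled, heavily mottled or pseudoagouti, with 2 mice in each class, numbered 1 and 2. The labels do not say what the number stands for, and each tissue had 10 arrays, 1 per mouse.

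Clotting ends with the conversion of soluble fibrinogen, built from paired alpha, beta and gamma chains, into fibrin by thrombin. Thrombin is made from prothrombin by factor Xa, which in turn is produced through factor VIIa with tissue factor or through factor IXa, while antithrombin and activated protein C hold the process back. Hepatocytes secrete nearly all of these proteins into plasma, and prothrombin, factors VII, IX and X and protein C need vitamin K to be carboxylated before they bind membranes. Fibrinogen is also an acute phase protein, whose synthesis in liver rises in inflammation.

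The median signal over all probe sets ran between 105.2 and 144.6 on liver arrays, 114.2 and 152.6 on kidney arrays, and 138.2 and 205.4 on brain arrays. Signals are MAS5 intensities, which are linear and scaled per array, and the number of arrays limits the precision. The tissue labels fitted their markers. The summed signal of 8 kidney tubule markers was 251 to 660 on liver arrays, 86491 to 173573 on kidney arrays and 347 to 819 on brain arrays. The 7 brain markers summed to between 791 and 1286 in liver, 228 and 499 in kidney, and 69759 and 127445 in brain, and 12 hepatocyte markers summed to between 273268 and 410614 in liver, 16345 and 37437 in kidney, and 1803 and 32547 in brain. Ttr, the transthyretin gene, which choroid plexus also expresses, held 14849 of the hepatocyte markers' signal in an average brain array. Some kidney values below were highest on 2 arrays with high marker signals. Kidney yellow 2 had the highest signal for 9 of 12 hepatocyte markers, and kidney heavily mottled 1 had the highest kidney tubule sum and the highest signal for 5 of 8 tubule markers.

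The first question was where the genes were expressed. All 9 were far higher in liver than in kidney or brain, in 10 of 10 mice for each of the 11 probe sets. The difference was 4.18 to 9.69 on the log2(signal + 16) scale between liver and kidney and 4.97 to 10.76 between liver and brain. All 11 passed limma's moderated test with mouse as a block (Benjamini-Hochberg adjusted p of at most 2.31e-15, and a log2 difference of at least 1), where 9.85% of all 22519 probe sets tested were called higher in liver than in kidney and 20.4% higher than in brain. All 11 probe sets passed the filter on low signal, and they did so through their liver level. Adding 16 before taking logs understates the fold of genes with little signal in the other tissue. In whole tissue, fewer cells of a type and less RNA per cell cannot be told apart.

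**Figure D1:**
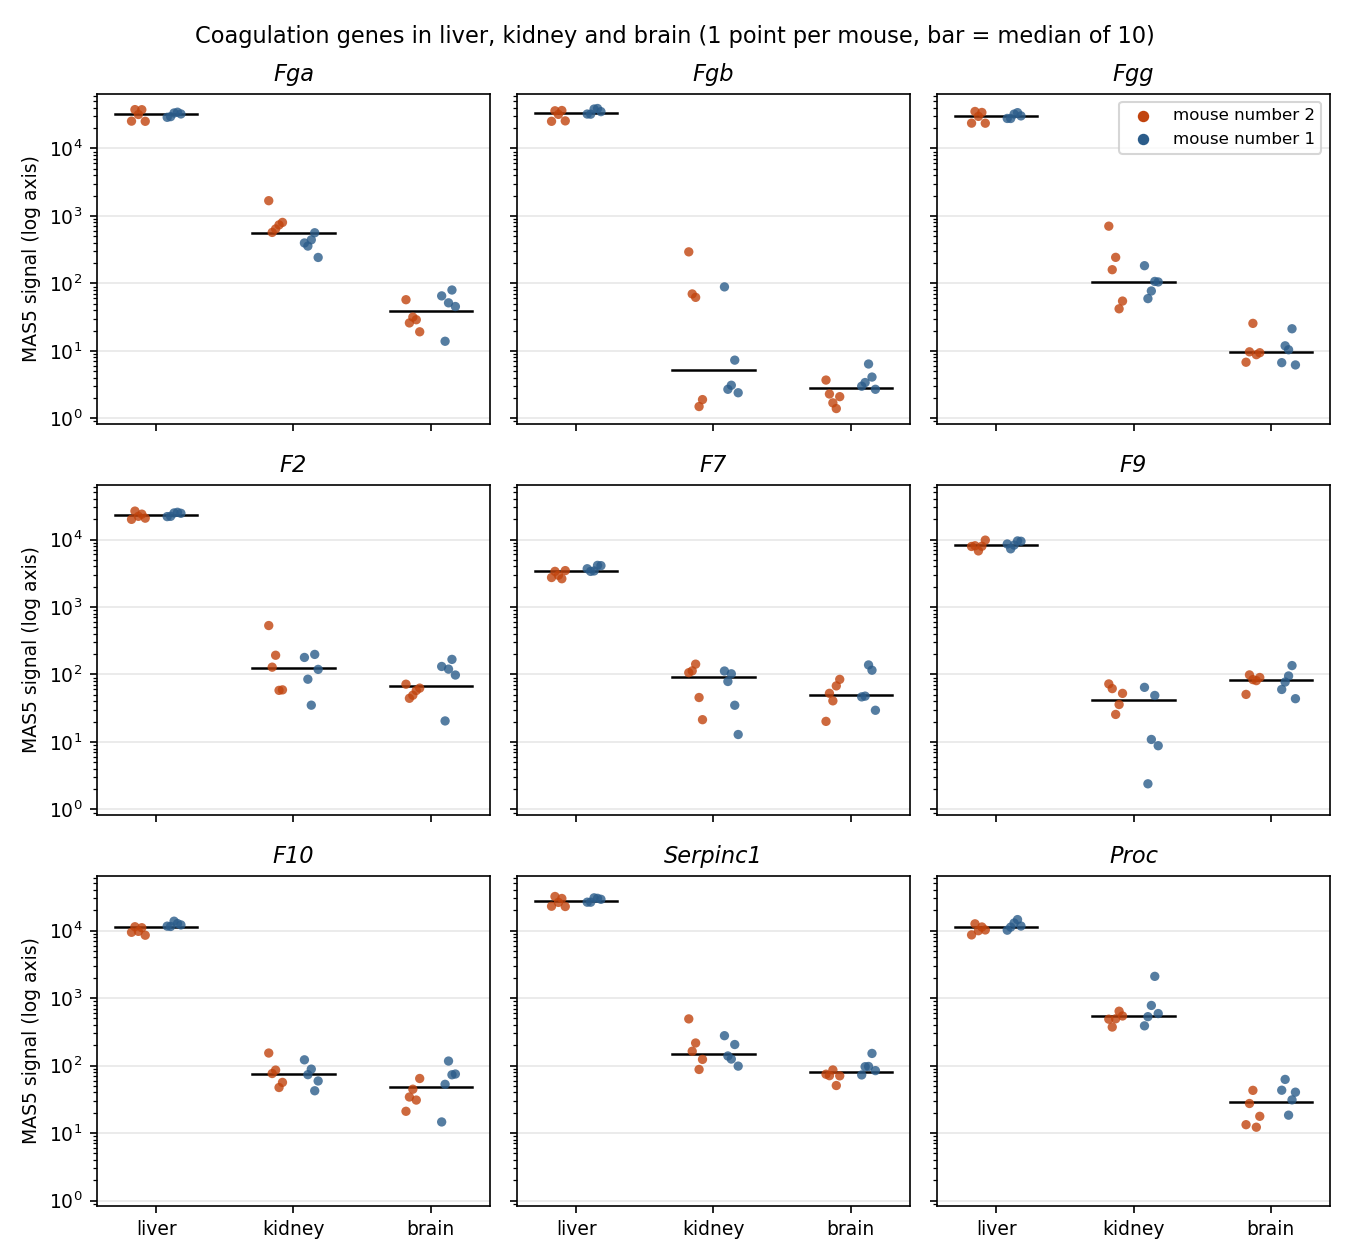
MAS5 signal (log axis) of the 9 genes in liver, kidney and brain of 10 mice; each point is a mouse, coloured by its number, the bar is the median of the tissue, and F10 is shown by 1449305_at. The liver points of each gene lie in a narrow band above all kidney and brain points, and in kidney Fga and Proc stand above their brain values in 10 of 10 mice.

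The fibrinogen chains had some of the brightest signals in liver. Fga, the alpha chain, had 25255 at the lowest, a median of 32159 and 37650 at the highest in liver. Fgb, the beta chain, had 25252, 33750 and 39090 in liver, and Fgg, the gamma chain, had 23674, 30129 and 35308 (lowest, median and highest of 10 mice). These values lay at 66.1% to 84.4% of the brightest probe set on the same array. In brain the same genes had 13.9 to 79.9 for Fga, 1.4 to 6.4 for Fgb and 6.2 to 25.6 for Fgg, all under the array median in 10 of 10 mice. Each chain had far lower signals in kidney than in liver, and levels are not compared between probe sets. Fga had 243 at the lowest, a median of 567 and 1683 at the highest in kidney, above the array median in 10 of 10 mice. Fgg had 42.1, 106 and 706 there and exceeded the array median in 4 of 10 mice. Fgb had 1.5, 5.2 and 294, with 1 mouse above the array median.

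The chains are encoded side by side. In the RefSeq gene table Fgg, Fga and Fgb follow each other on chromosome 3 with no other protein-coding gene between them. The 250 bases before the annotated start of each are shown because the chains varied together in liver on the deposited scale. The sequences are those of RefSeq on build GRCm38.p6, at chr3:83025903-83026152 on the plus strand for Fga, chr3:83049864-83050113 on the minus strand for Fgb and chr3:83007474-83007723 on the plus strand for Fgg. They run 5′ to 3′ towards the start of the gene, and capitals mark matches on either strand to GTTAAT, a core of the motif of the hepatocyte factor HNF1, to CTGGGAA, the core of the interleukin 6 response element, and to TTGCNNAA, a C/EBP motif.
Fga: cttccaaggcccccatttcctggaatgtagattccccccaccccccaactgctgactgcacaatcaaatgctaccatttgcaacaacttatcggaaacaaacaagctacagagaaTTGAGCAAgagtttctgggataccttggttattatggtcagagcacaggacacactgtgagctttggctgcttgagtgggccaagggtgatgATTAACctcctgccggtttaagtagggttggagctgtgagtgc
Fgb: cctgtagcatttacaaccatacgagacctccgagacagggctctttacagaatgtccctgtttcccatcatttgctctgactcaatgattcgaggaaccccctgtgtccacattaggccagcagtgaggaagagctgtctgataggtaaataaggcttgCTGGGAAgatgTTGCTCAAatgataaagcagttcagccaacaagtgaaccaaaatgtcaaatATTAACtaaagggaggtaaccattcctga
Fgg: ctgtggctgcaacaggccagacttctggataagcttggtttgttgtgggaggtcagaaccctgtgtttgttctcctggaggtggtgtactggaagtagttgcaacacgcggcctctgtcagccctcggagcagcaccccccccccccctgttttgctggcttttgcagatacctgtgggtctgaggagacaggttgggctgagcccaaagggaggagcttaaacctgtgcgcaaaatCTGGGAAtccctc

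GTTAAT was found in Fga, 43 to 38 bases upstream, and in Fgb, 29 to 24 bases upstream. It was found in 2 of the 8 members searched and in 6.43% of 32851 annotated promoters of the same length. CTGGGAA was found in Fgb, 91 to 85 bases upstream, in Fgg, 13 to 7 bases upstream, and in F9, which made 3 of 8 members against 9.10% of all promoters. TTGCNNAA was found in Fga, 135 to 128 bases upstream, in Fgb, 80 to 73 bases upstream, and in F9, which made 3 of 8 members against 9.56%. The marked positions did not overlap in these windows. F2, F7, F10 and Serpinc1 held none of these letters in the 250 bases, and Proc was not searched.

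The vitamin K-dependent genes and antithrombin followed the same order of tissues. F2, prothrombin, had 19894 to 26364 in liver with a median of 22916, against 35.1 to 531 in kidney and 20.5 to 167 in brain. F9, factor IX, had 6779 to 9794 in liver, compared with 2.4 to 72.5 in kidney and with 43.8 to 136 in brain. It was the member with a lower mean in kidney than in brain that passed an adjusted p under 0.05 (log2 difference -0.98, limma adjusted p = 0.000139), short of the log2 difference of 1 used for a call, and all 20 of its kidney and brain values lay under the array medians. F7, factor VII, had 2623 to 4137 in liver, compared with 12.9 to 142 in kidney and with 20.2 to 139 in brain, and its kidney and brain means differed by 0.15 (limma adjusted p = 0.62). F10, factor X, had 8534 to 13771 in liver at 1449305_at, against 42.3 to 153 in kidney and 14.6 to 117 in brain. Serpinc1, antithrombin, the serpin that inhibits thrombin and factor Xa, had 22721 to 31986 in liver, compared with 87.5 to 491 in kidney and with 50.6 to 151 in brain. No brain value of any member exceeded its array's median.

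Proc, protein C, the anticoagulant protease that thrombin activates, had the smallest liver to kidney difference of the members. It had 8627 at the lowest, a median of 11279 and 14544 at the highest in liver, compared with 372, 536 and 2098 in kidney and with 12.2, 29.2 and 62.3 in brain. The log2 difference was 4.18 between liver and kidney and 7.98 between liver and brain. The kidney values were above the array median in 10 of 10 mice, and no kidney value overlapped a brain value.

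Kidney and brain were then compared directly. Of the 11 probe sets, 4 were called higher in kidney, against 20.7% of all probe sets tested: Proc by 3.80, Fga by 3.41, Fgg by 2.37 and Fgb by 1.07 on the log2 scale (limma adjusted p = 1.78e-15, 2.08e-13, 1.13e-08 and 0.00776). Proc, Fga and Fgg were higher in kidney in 10 of 10 mice and Fgb in 6 of 10. Fgb fell short of the log2 difference of 1 when any of 4 mice was left out, at 0.75 without yellow 2, 0.92 without yellow 1, 0.94 without slightly mottled 2 and 0.95 without mottled 2, and with an offset of 64 (0.55). Serpinc1 was higher in kidney in 10 of 10 mice by 0.91 (limma adjusted p = 8.16e-05), under the log2 difference needed for a call.

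1 kidney carried much of the signal of several liver genes. In kidney yellow 2, 7 of the 9 members had their highest kidney signal, at a median of 2.99 times the median of the other 9 kidneys. Fgb had 294 in that kidney, against 1.5 to 88.9 in the other kidneys. Fgg had 706 against 42.1 to 244, F2 had 531 against 35.1 to 198, and Fga had 1683 against 243 to 802. The hepatocyte markers moved with them, with a median of 3.81 times the other kidneys' median and 9 of 12 at their highest. Alb, albumin, had 10094 in kidney yellow 2, against 151 to 4378 in the other kidneys, and none of the 12 markers was under the array median there. As a share of the gene's mean liver signal, kidney yellow 2 held 5.31% for Fga, 2.36% for Fgg, 2.30% for F2 and 0.883% for Fgb. Alb had the largest such share of the 12 markers, 36.7%. Ttr, Cyp2e1 and Hpd had 30.6%, 21.7% and 18.7%, and the remaining markers 1.28% (Apob) to 4.74% (Apoa2). Proc had 486 in that kidney, inside the range of the others. The part of the hepatocyte markers in the members' kidney signal was not tested. Without yellow 2 the kidney to brain difference was 3.29 for Fga, 2.08 for Fgg and 3.76 for Proc.

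Proc was highest in another kidney. Heavily mottled 1 had 2098, against 372 to 777 in the other 9 kidneys. That kidney had the second highest sum of hepatocyte markers, 34849, of which Cyp2e1, a cytochrome P450 also found in proximal tubule, made 17008. Its kidney tubule markers summed to 173573, the highest of the 10 kidneys. Its sums were also the highest of the 10 for choroid plexus markers (33748, against 19725 to 29397 in the others) and pancreas markers (9678, against 3824 to 8972). The same held for platelet markers (1846, against 1165 to 1783), and not for brain, blood, macrophage, endothelium, adrenal or adipose markers. Choroid plexus and pancreas markers thus had signal in all 10 kidneys. The part of these markers in the Proc signal was not tested. Its Fgb was 7.3 and its Fga 564, neither the highest. Without that mouse Proc was higher in kidney than in brain by 3.61 (limma adjusted p = 1.39e-15).

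**Figure D2:**
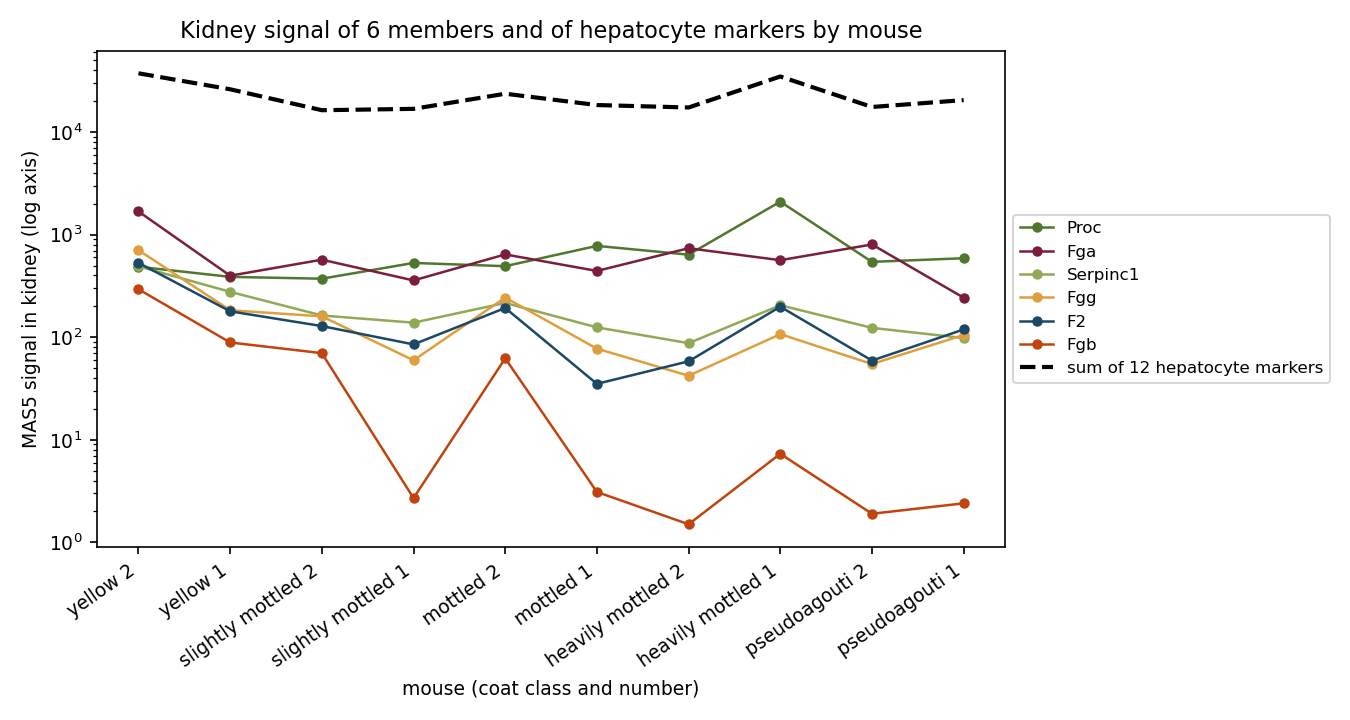
Signal in kidney (log axis) of 6 members and summed signal of 12 hepatocyte markers, by mouse in the order of coat class; lines join the values of a gene and stand for no time course. Fgb, Fgg, F2, Fga and Serpinc1 peak with the markers in yellow 2, while Proc peaks at 2098 in heavily mottled 1.

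The next question was how far livers of different mice differed. The spread was small at the brightest probe set of each gene: the SD of log2(signal + 16) over 10 livers was 0.13 for F2, 0.17 for F9 and for Serpinc1, and 0.20 to 0.22 for Fga, Fgg, Fgb, Proc, F7 and F10 at 1449305_at. The highest liver had 1.33 times the lowest for F2 and 1.69 times for Proc, the ends of this range over the 9 genes at those probe sets. The other F10 probe sets spread more, by 2.07 times at 1418992_at (SD 0.40) and 1.91 times at 1418993_s_at (SD 0.32), and 78.8% and 67.8% of their neighbours in level had a smaller SD. Among the 500 probe sets nearest in liver level, 6.8% had a smaller SD than F2, 19.8% a smaller SD than F9 and 22.2% a smaller SD than Serpinc1. For the fibrinogen chains the share was 47.8% to 59.0%, so they varied about as much as these neighbours. The match in level was uneven for such bright probe sets. The chains had log2 means of 14.86 to 15.01, and their neighbours ran from 13.66 to 15.38. For F2 and Serpinc1 the lower end was 13.66 as well. The median SD over the 9 genes was 0.21, and it was 0.11 and 0.09 after quantile normalisation over all arrays or within liver.

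The fibrinogen chains varied together across livers. Slightly mottled 2 had the highest liver value for 6 of the 11 probe sets, pseudoagouti 2 the lowest for 4 and yellow 2 the lowest for 3. Pearson's r over 10 livers was 0.988 for Fga and Fgg (rho 0.988), 0.943 for Fgb and Fgg (rho 0.842) and 0.902 for Fga and Fgb (rho 0.830). The two-sided permutation p-values of r, adjusted over the 3 pairs, were 3e-05, 0.00048 and 0.00074, and those of rho were 3e-05, 0.00473 and 0.00473. The first p, 1e-05 before adjustment, was the smallest that 100000 permutations can give. Without yellow 2 and pseudoagouti 2, the livers with the lowest values, r was 0.969, 0.818 and 0.701. Within the 5 mice of number 2 it was 0.996 to 0.998, and within those of number 1 it was 0.970 to 0.992. This relation was shared by other bright liver genes and depended on the scaling of the arrays. The summed hepatocyte markers and the brightest signal of each array ran in nearly the same order, with pseudoagouti 2 and yellow 2 lowest and slightly mottled 2 and heavily mottled 2 highest in all these measures. After quantile normalisation within liver, r was 0.245 for Fga and Fgg, 0.629 for Fgb and Fgg and -0.141 for Fga and Fgb, and none passed the test. With the mean of the hepatocyte markers subtracted, Fga and Fgg had 0.612 and Fga and Fgb 0.478, also short of the test, while Fgb and Fgg had 0.846 and passed it (permutation p adjusted over the 3 pairs, 0.00552).

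Of 8964 genes searched, those most alike to the mean of the 3 chains over the 10 livers were Plg, plasminogen (r = 0.989), Cox7a2 (0.988), Atp5g3 (0.985), Hpx, hemopexin (0.984), and Eef1a1 (0.982). For the mean of F2, F7, F9, F10 and Proc they were 1300017J02Rik (0.966), Atp5e (0.954), Acaa2 (0.953), C8g (0.951) and Higd2a (0.944). These r describe 10 arrays that also share their brightness, and no test is attached to them.

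**Figure D3:**
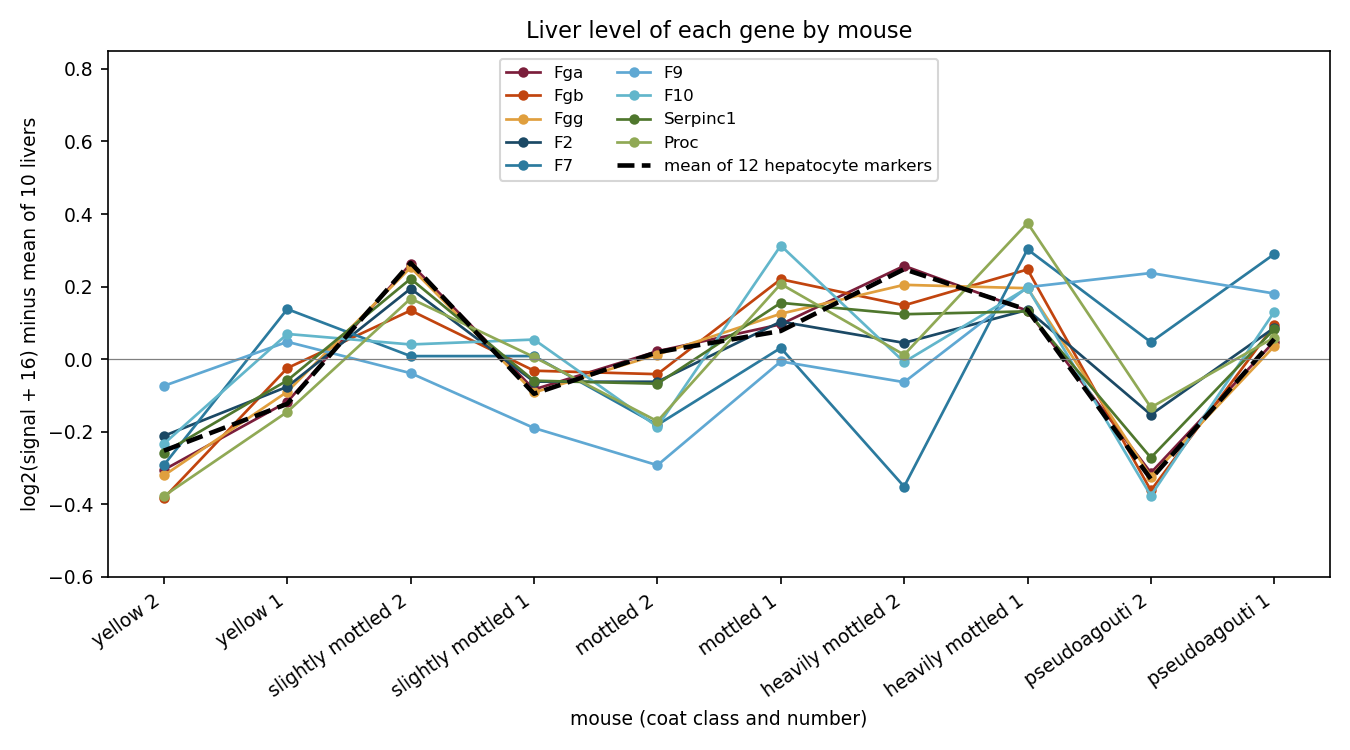
Log2(signal + 16) of each gene in liver minus its mean over 10 livers, by mouse in the order of coat class, with the mean of 12 hepatocyte markers as a dashed line; lines join the values of a gene and stand for no time course. The fibrinogen chains run with the dashed line, low in yellow 2 and pseudoagouti 2, while F7 in heavily mottled 2 and F9 in pseudoagouti 2 depart from it.

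Other acute phase genes ranged from steadier to far more variable over the same livers. Of 15 measured, 12 were called higher in liver than in kidney, and their SD over livers ran between 0.11 and 1.32, with a median of 0.36, against a median of 0.21 for the members and 0.32 for all probe sets tested; no test is attached to these medians. The medians are not matched for signal level, on which the SD depends, and the acute phase list holds dim genes. Among these were Lcn2 and Socs3, with liver medians of 360 and 363. Of the bright ones, Crp, C-reactive protein, Cp, ceruloplasmin, and Itih4 had SDs of 0.11, 0.14 and 0.19, below those of the fibrinogen chains. Hpx had 0.22, inside the range of the chains. Hp, Apcs and Saa4, with liver medians of 26338, 15305 and 10314, had SDs of 0.23, 0.24 and 0.36, above that range. Orm1, the acute phase glycoprotein orosomucoid 1, had 538 to 15972 and an SD of 1.32, and Lcn2, lipocalin 2, had 73.5 to 665 and an SD of 0.92. Fga, Fgb and Fgg spanned 1.49 to 1.55 times from the lowest to the highest liver. Crp, Cp, Itih4, Hp, Apcs, Saa4, Orm1 and Lcn2 are named for their spread, after their values were seen.

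The series set out to find loci that vary between mice in the same way in each tissue. None of the 11 probe sets passed the moderated F-test of the mouse effect shared by the tissues (limma adjusted p 0.105 to 0.867, 1 at an unadjusted p under 0.05, where 5689 of all 22519 probe sets were), where 6.80% of all probe sets did. With the number removed within each tissue as a replicate block the count was also 0. No brain value of any member exceeded its array's median, and many kidney values did not either. The test could therefore hardly find differences shared by the tissues in these genes, and no conclusion is drawn from it. None had a slope on coat class from yellow (0) to pseudoagouti (4) in liver, kidney or brain that passed the test, where 0%, 0.00444% and 0% of all probe sets did. At an unadjusted p under 0.05 there were 0 in liver, 5 in kidney and 2 in brain, where 536, 465 and 326 of all 22519 probe sets were. In kidney 10 of the 11 slopes were negative, with a median of -0.27 per class against -0.01 over all probe sets, and the largest was that of Fgb at -0.76 (limma adjusted p = 1). The 12 hepatocyte markers had a median kidney slope of -0.30 and 7 at an unadjusted p under 0.05. All these kidney slopes share the array of yellow 2, at class 0, which had the highest kidney signal for 7 of the 9 members. They are therefore not separate observations. F7 was not among those 7, and its kidney slope had the smallest unadjusted p of the members (-0.48, limma unadjusted p = 0.000439). F7 had 106.4 in kidney yellow 2, inside the 12.9 to 142.3 of the other kidneys. Its lowest kidney values were those of pseudoagouti 1 and 2, at 12.9 and 21.4. No difference of the slopes between tissues passed the test either (limma adjusted p of at least 0.55, 5 at an unadjusted p under 0.05, where 544 of all 22519 probe sets were).

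Mice numbered 2 were compared with those numbered 1 because the number is balanced over coat classes. In liver 1 of 11 probe sets was called, against 8.93% of all probe sets tested and 4.16% in the same, higher direction. It was 1418992_at, a probe set of F10, with 1219, 1335, 1104, 1311 and 986 in livers of number 2 and 863, 707, 645, 702 and 725 in livers of number 1 (yellow, slightly mottled, mottled, heavily mottled, pseudoagouti). The groups did not overlap, as in 5.01% of all probe sets in this direction, and the difference was 0.70 ± 0.11 (SE; limma adjusted p = 0.00579).

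The other F10 probe sets gave other answers. At 1449305_at, the brightest, livers of number 2 had 9426, 11397, 9738, 11021 and 8534, and livers of number 1 had 11629, 11506, 13771, 12702 and 12130. Here number 2 lay below number 1 without overlap, as in 4.88% of all probe sets, by -0.31 ± 0.11 (SE; limma adjusted p = 0.10). At 1418993_s_at, whose suffix marks probes that can match more than a single transcript, the difference was 0.40 (limma adjusted p = 0.12). The ratio of 1449305_at to 1418992_at was 8.43 ± 0.42 in livers of number 2 and 17.2 ± 2.87 in livers of number 1 (SD, n = 5 each). Since both probe sets separated the numbers in opposite directions, their ratio had to separate them too. This fixed in advance the outcome of an exact permutation test of the ratio, and that test is not used here. No direction between the numbers is given for F10 as a gene.

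**Figure D4:**
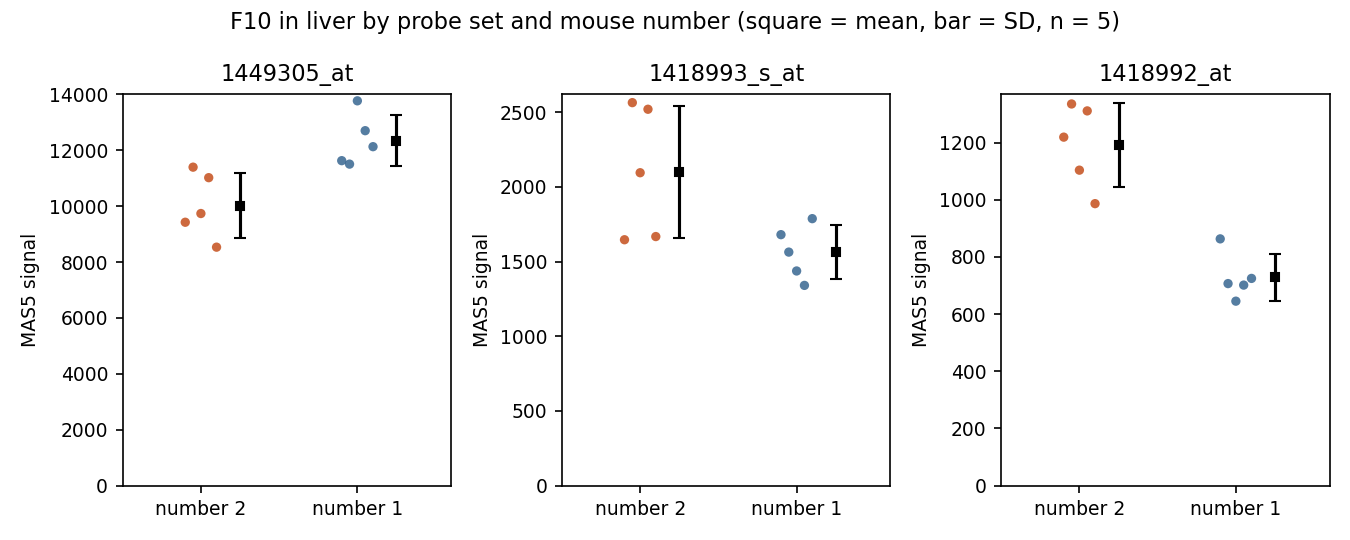
Liver signal of F10 at its 3 probe sets in mice numbered 2 and 1 (5 each); circles are mice, and the square and bar are the mean and SD. 1418992_at lies higher in number 2, at 986 to 1335 against 645 to 863, and 1449305_at lies lower in number 2.

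In kidney none of the 11 was called between the numbers (limma adjusted p of at least 0.0543, 2 at an unadjusted p under 0.05, where 6267 of all 22519 probe sets were), where 1.93% of all probe sets were, and Fga came closest. It had 1683, 570, 642, 737 and 802 in kidneys of number 2 and 398, 358, 443, 564 and 243 in kidneys of number 1. The groups did not overlap, as in 3.36% of all probe sets in this direction, though slightly mottled 2 and heavily mottled 1 were almost level. The difference was 1.05 ± 0.27 (SE; limma adjusted p = 0.0543), and 0.79 without yellow 2 (adjusted p = 0.109). It passed at 0.034 with the coat class pair as a replicate block and at 0.0477 with the filter set on the overall mean. It also passed at 0.0269 without mottled 1 and at 0.0466 without mottled 2. These settings called 2236, 940, 3926 and 1158 of all 22519 probe sets, in that order, against 434 in the main fit. With any other mouse left out, at most 1 of all probe sets was called. The difference of Fga between the numbers was -0.03 in liver and -0.41 in brain. Its dependence on tissue passed the interaction test (moderated F = 10.8, limma adjusted p = 0.0251), which 4.94% of all probe sets passed, and missed it without yellow 1 (0.0585), pseudoagouti 1 (0.0658) or pseudoagouti 2 (0.0743). The 12 hepatocyte markers had a median difference of 0.56 between the numbers in kidney, with 0 called and 3 at an unadjusted p under 0.05. The brightest signal per kidney array ran between 19007 and 25922 in number 2, against 22991 and 45410 in number 1. The part of either in the result was not tested. In brain none was called (0.915% of all probe sets were, and 0 members had an unadjusted p under 0.05).

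The rest of the pathway was read from lists of genes. The contact and common pathway factors were mostly liver genes: of 7 measured, 6 were called higher in liver than in kidney and 7 higher than in brain. F12, factor XII, had 7491 ± 818 in liver, compared with 7.1 ± 2.59 in kidney and with 8.69 ± 2.14 in brain (mean signal ± SD, n = 10, here and below). Kng1 and F13b were high in kidney as well. Kng1, kininogen, had 27355 ± 4910 in liver, compared with 5271 ± 1953 in kidney and with 3.54 ± 2.29 in brain, and F13b, the B subunit of factor XIII, had 12298 ± 527 in liver, compared with 5073 ± 748 in kidney and with 14.4 ± 30.9 in brain. F5, factor V, was the gene of this list called between the numbers in liver, higher in number 2 by 0.97 (limma adjusted p = 0.000805). In that direction 4.16% of all probe sets were called.

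The trigger of clotting and its inhibitor had their highest means outside liver. F3, tissue factor, had 127 ± 39.7 in liver, compared with 422 ± 124 in kidney and with 980 ± 207 in brain, and each of these differences was called. Of all 22519 probe sets, 4191 were called lower in liver than in kidney, 6800 lower in liver than in brain and 4927 lower in kidney than in brain. Tfpi, its inhibitor, had 610 ± 87.9 in liver, compared with 1150 ± 256 in kidney and with 248 ± 59.3 in brain, with a liver to kidney difference of -0.88 that was short of a call and a liver to brain difference of 1.27 that was called (limma adjusted p = 5.19e-11).

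Of 7 measured anticoagulant genes, 5 were called higher in liver than in kidney and 2 lower, where 2218 and 4191 of all 22519 probe sets were. Hrg, histidine-rich glycoprotein, and Serpind1, heparin cofactor II, were higher by 7.53 and 7.13 on the log2 scale. The 2 lower genes were Thbd, thrombomodulin, and Procr, the endothelial protein C receptor, which together let thrombin activate protein C on vessel walls. Thbd had 384 ± 105 in liver, compared with 1307 ± 324 in kidney and with 300.1 ± 82.7 in brain, and Procr had 69.1 ± 39.1 in liver, compared with 274 ± 62.5 in kidney and with 27.5 ± 13.9 in brain. In kidney the signals of Proc, Thbd and Procr exceeded their brain signals by a called difference (3.80, 2.08 and 2.79), as did 20.7% of all probe sets tested. All 7 endothelium markers were also called higher in kidney than in brain, with a median difference of 2.88.

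Of 5 measured genes of fibrinolysis, 3 were called higher in liver than in kidney and 1 lower, where 2218 and 4191 of all 22519 probe sets were. Plg, plasminogen, had 26639 ± 3508 in liver, compared with 86.8 ± 103 in kidney and with 13.3 ± 11.1 in brain. Plat, tissue plasminogen activator, ran the other way with 155 ± 48.0 in liver, compared with 3081 ± 957 in kidney and with 1488 ± 260 in brain. Serpinf2, the plasmin inhibitor, had 16848 ± 2770 in liver, compared with 2108 ± 970 in kidney and with 106 ± 60.5 in brain. Habp2 and Serpinf2 were called lower in livers of number 2, by -1.20 and -0.39 (limma adjusted p = 0.00259 and 0.0366). In that direction 1076 of all 22519 probe sets were called.

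All 4 genes of the vitamin K cycle and of factor secretion were called higher in liver than in kidney and in brain. Ggcx, the carboxylase, and Vkorc1, the reductase that warfarin blocks, were higher in liver than in kidney by 2.18 and 1.97, and Lman1 and Mcfd2, the cargo receptor for factors V and VIII, by 1.21 and 1.01. Of 2 measured receptors, F2r, the thrombin receptor PAR1, was lower in liver than in kidney by -1.25. It had 3789 ± 620 in liver against 9124 ± 1937 in kidney, and 4191 of all 22519 probe sets were called in this direction. Of 5 measured liver transcription factors, 4 were called higher in liver than in kidney. Hnf4a was not, at 9203 ± 1538 in liver against 8894 ± 1630 in kidney (log2 difference 0.05), while Foxa2 and Onecut1 were higher in liver by 4.21 and 4.43.

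**Figure D5:**
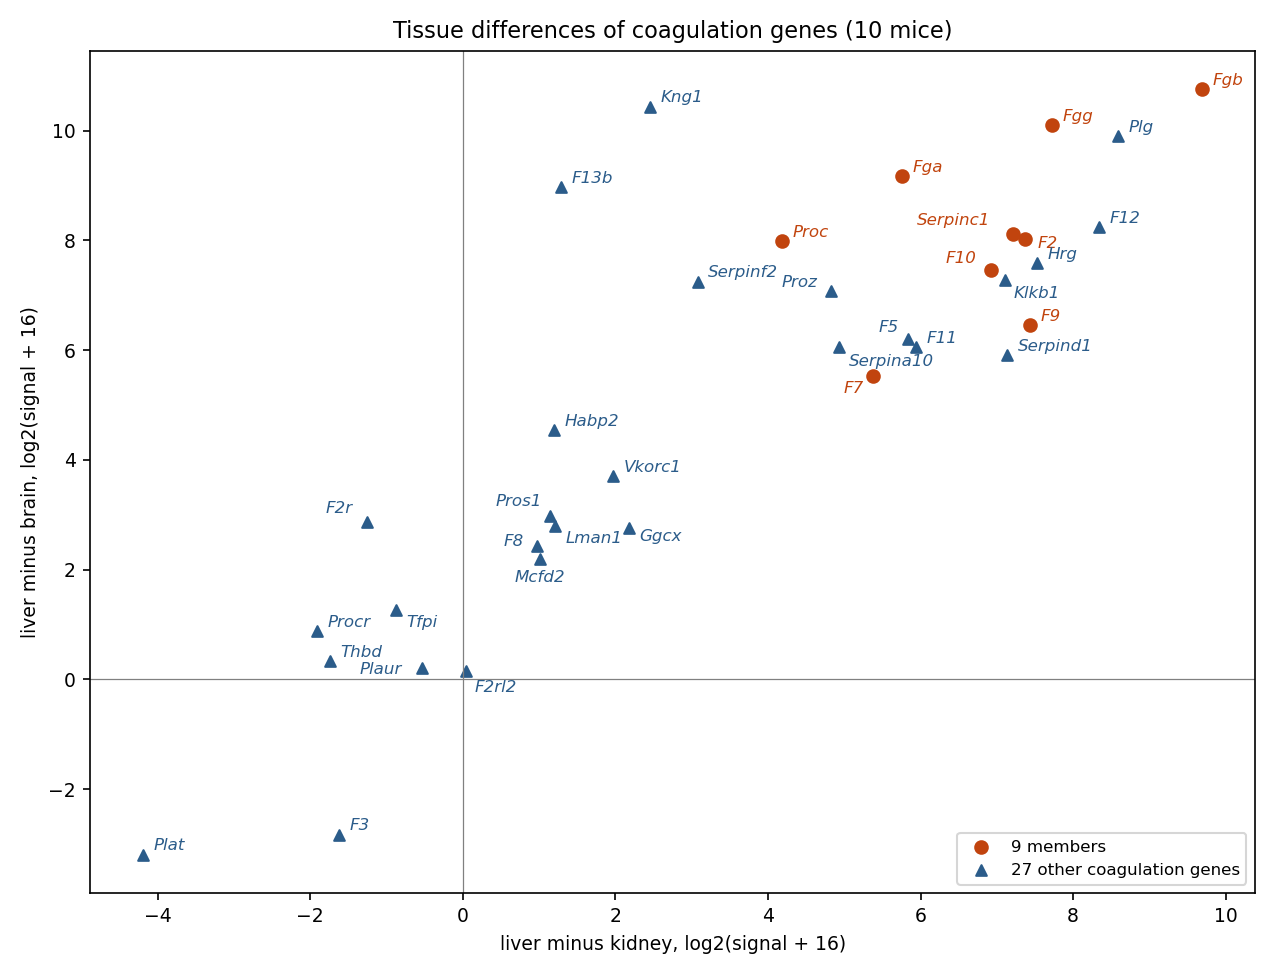
Log2(signal + 16) difference of liver from kidney (horizontal) and of liver from brain (vertical) for the 9 members, circles, and 27 other coagulation genes, triangles, over 10 mice. The members lie far to the upper right, Kng1 and F13b differ far more from brain than from kidney, and Plat and F3 lie below 0 on both axes.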

How the data were processed

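The deposited values were linear intensity per probe set, made by the authors with MAS5, per the submitters' processing notes; its version is not given in the sources used here. Each array's 2% trimmed mean was 500, so the authors had scaled it. No detection calls were used. Values were tested as log2(signal + 16) with limma 3.58.1 in R 4.3.3 (eBayes, trend), with a threshold of 0.05 on p after Benjamini-Hochberg adjustment. Of 45101 probe sets, 64 controls were left out. Tests covered the 22519 probe sets whose largest tissue mean was no lower than the median of such means, a signal of 242.

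The 3 arrays of a class and number were taken as 1 mouse and served as a block for tissue comparisons. Number fits held coat step as a covariate. Probe sets came from the platform annotation, with 1 symbol for 34945, several for 932 and none for 9160. Genes outside the members stand by their brightest probe set.

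The members and lists were chosen with earlier results of these data known. Beyond the members, up to 4 genes per list were named, those with the largest difference or smallest p, unless stated. Kng1 and F13b, and the kidney markers shown, were named after their values were seen. Lists covered contact and common pathway factors, initiation, anticoagulants, fibrinolysis, the vitamin K cycle, receptors, liver transcription factors, acute phase and 11 cell types. Fits were tested on simulated data. Alternatives were offsets, filters, quantile normalisation, probe set suffixes, other blocks and each mouse left out. Correlations used scipy 1.17.1.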

Additional observations from a re-analysis of the deposited data

Results flagged for a closer look

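Of 33 groups of 10 values, 2 held a value far from the others; chance marks about 1 group in 20. Proc had 2097.6 in kidney heavily mottled 1, against 372.0 to 777.4 in the other 9 kidneys. F10 at 1418992_at had 55.5 in brain yellow 1, against 3.9 to 21.5 in the other 9 brains, and all 10 values were under the array medians. The difference of Fga between numbers 2 and 1 depended on tissue (limma adjusted p = 0.0251): it was 1.05 in kidney, -0.03 in liver and -0.41 in brain.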

How the results depend on the processing

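The 11 liver to kidney and 11 liver to brain calls held under each alternative that tested the probe set, and the mouse and coat counts stayed at 0, also with the number as a replicate block. Between numbers the liver count was 0 with the filter on the overall mean, which did not test 1418992_at of F10, and 2 with quantile normalisation over all arrays. It was 1 with each mouse left out. The kidney count was 1 with the filter on the overall mean and 1 with the coat class pair as a replicate block. Those settings called 940 and 2236 of all 22519 probe sets. The kidney count was 0 to 1 with a mouse left out. The count of the number by tissue test was 2 with an offset of 64 and 0 to 1 with a mouse left out. The kidney to brain count was 3 to 5 with a mouse left out. Numbers paired the samples in liver, where deviations from the class mean correlated at 0.129 to 0.391 in 10 of 10 pairs of classes (median 0.234). In kidney the median was higher, at 0.300, with 9 of 10 pairs over 0.1. In brain it was 0.184, with 6 of 10 pairs over 0.1. For tissue comparisons, leaving the mouse block out (no replicate block) kept the counts at 11, 11 and 4.

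Correlations of the fibrinogen chains depended on scaling. With quantile normalisation over all arrays r was -0.137 for Fga and Fgb, 0.270 for Fga and Fgg and 0.613 for Fgb and Fgg, and within tissue it was -0.141, 0.245 and 0.629. With the mean of hepatocyte markers subtracted, chosen after seeing the data, it was 0.478 for Fga and Fgb (adjusted p = 0.142) and 0.612 for Fga and Fgg (adjusted p = 0.0809), while Fgb and Fgg kept the call at 0.846 (adjusted p = 0.00552). The cause was not tested. Values that missed the test also changed sign: the Fga difference between numbers in liver was 0.0106 and 0.0102 after quantile normalisation over all arrays and within tissue, and -0.112 to 0.0861 with a mouse left out, and that of F10 at 1449305_at in kidney was -0.0411 and -0.0418, and -0.0317 to 0.170. Signals near the lowest on an array have no detection call here, which limits comparisons of kidney with brain.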
